A study of Mus musculus with 13 samples.

Results

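Clock output genes carry the daily timing of the circadian oscillator into the rest of the cell. The set described here holds 9 of them, Dbp, Tef, Hlf, Nfil3, Bhlhe40, Bhlhe41, Usp2, Wee1 and Ciart, and was taken as every probe whose gene name in the scanner files was one of these symbols. That gave 11 probes among the 39429 of the array, 2 each for Dbp and Bhlhe41 and 1 for each other gene. Of the 9 genes, 8 passed the filter on dim probes and were tested among 19551 genes. Bhlhe41 did not pass.

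Liver RNA of female C57BL6 mice at 12 weeks of age was measured on 13 one-colour arrays, each a separate biological replicate by its title. The groups were the HFHS diet with vehicle (5 arrays, called HFHS), the ST diet with a mixture of 4 pollutants (5 arrays, called pollutants) and the ST diet with vehicle (3 arrays, called ST vehicle). HFHS is described as a high fat diet and ST as the standard one. The composition of the diets, the names of the pollutants, the time of day at which the livers were taken and the lighting schedule are not given in the sources used here. Every pollutant sample is labelled with the ST diet, while the wording of the series allows the reading that the mixture went into the high fat diet. The sample labels were followed.

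The arrays lay on 5 slides. Each slide held 1 HFHS and 1 pollutant array, and the 3 ST vehicle arrays lay on slides 1, 2 and 5. Arrays of a group correlated at 0.977 to 0.992, and the 3 arrays of slide 1 stood apart on the first principal component (-41.8 to -35.5, against -2.5 to 36.7 for the other 10 arrays). All 9 measured hepatocyte markers were above background on every array. HFHS replicates 3, 4 and 5 carried pancreatic acinar transcripts: the mean log2 level of the 12 measured markers was 4.80, 3.54 and 6.91 there, -2.54 and -2.95 on HFHS replicates 1 and 2, -3.36 to -1.80 on the pollutant arrays and -3.16 to -2.44 on the ST vehicle arrays. Of those 12 markers, 6 were above background on every array. The mean of the 4 measured cholangiocyte markers was -2.78 to -2.43 in HFHS, -2.63 to -1.64 under the pollutants and -2.22 to -1.89 in ST vehicle, lower in HFHS than in ST vehicle without overlap. The mean of the 3 measured erythroid markers was 3.48 to 4.16 in HFHS, 3.99 to 4.30 under the pollutants and 3.29 to 3.80 in ST vehicle, higher under the pollutants than in ST vehicle without overlap. All 7 of these markers were above background on every array, and their part in the results was not tested. The endothelial, macrophage, T cell, adipocyte and muscle marker means overlapped ST vehicle in both comparisons. In whole liver, fewer cells of a type and less RNA per cell cannot be told apart.

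In the mammalian clock, CLOCK and BMAL1 (the protein of Arntl) activate genes through E-box sequences, and the PER and CRY proteins feed back to repress them. Output genes pass the rhythm on. The PAR bZIP factors DBP, TEF and HLF activate genes through D-box sequences, on which NFIL3 acts as a repressor, and in mouse liver they are known for driving genes of heme and xenobiotic metabolism. BHLHE40 and BHLHE41 bind E-boxes and repress, and CIART, also called CHRONO, binds BMAL1 and represses it. USP2 is a deubiquitinase with a strong rhythm in liver, and WEE1 is a kinase that holds back entry into mitosis.

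The promoters are shown first because E-boxes and D-boxes are the sequences through which the clock is known to act on its output genes. RefSeq promoter windows on build GRCm38.p6, running from 250 bases before to 50 bases after the gene start, were at hand for 7 of the 9 genes, with 2 entries for Tef. Each window was searched on both strands for the E-box CACGTG, the E-box variant CACGTT, the D-box as TTATGTAA or TTACGTAA, and the cAMP response element TGACGTCA. No 2 of these motifs overlapped in the windows of the set. The genes printed are Ciart, Tef and Usp2, which had an adjusted p under 0.05 against ST vehicle in at least 1 comparison and have a window, and capitals mark the E-box:
Ciart promoter, chr3:95882179-95882478, minus strand: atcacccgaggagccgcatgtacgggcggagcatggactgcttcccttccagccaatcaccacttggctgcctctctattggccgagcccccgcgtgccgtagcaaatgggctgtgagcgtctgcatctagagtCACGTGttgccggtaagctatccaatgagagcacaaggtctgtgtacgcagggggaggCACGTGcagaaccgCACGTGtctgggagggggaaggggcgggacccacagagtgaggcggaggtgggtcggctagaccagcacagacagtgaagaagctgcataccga
Tef promoter, first entry, chr15:81802423-81802722, plus strand: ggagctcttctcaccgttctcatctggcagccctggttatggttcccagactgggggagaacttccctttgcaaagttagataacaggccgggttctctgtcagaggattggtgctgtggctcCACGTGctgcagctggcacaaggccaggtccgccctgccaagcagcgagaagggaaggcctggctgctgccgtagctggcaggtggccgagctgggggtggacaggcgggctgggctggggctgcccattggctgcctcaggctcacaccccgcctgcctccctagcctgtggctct
Tef promoter, second entry, chr15:81811164-81811463, plus strand: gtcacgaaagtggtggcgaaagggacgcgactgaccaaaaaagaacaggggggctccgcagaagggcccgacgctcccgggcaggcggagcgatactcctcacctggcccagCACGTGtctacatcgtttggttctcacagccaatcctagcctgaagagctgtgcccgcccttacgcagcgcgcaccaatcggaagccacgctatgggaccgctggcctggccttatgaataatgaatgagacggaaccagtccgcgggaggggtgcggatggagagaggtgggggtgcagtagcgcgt
Usp2 promoter, chr9:44084670-44084969, plus strand: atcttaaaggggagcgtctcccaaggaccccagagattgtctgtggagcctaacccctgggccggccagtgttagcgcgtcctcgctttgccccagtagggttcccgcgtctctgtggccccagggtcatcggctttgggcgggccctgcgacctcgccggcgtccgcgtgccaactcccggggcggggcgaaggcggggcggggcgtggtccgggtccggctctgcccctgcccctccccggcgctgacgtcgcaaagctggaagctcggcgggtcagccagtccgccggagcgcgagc

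The Ciart window held 3 E-boxes, starting 116, 58 and 44 bases before the gene start. Among the 32851 promoter windows of the table, 0.0883% held 3 or more and 7.15% held at least 1. Each Tef window held a single E-box, 127 and 138 bases before its start, and the Bhlhe41 window held 1 at 153 bases. No motif of the search was found in the windows of Usp2, Dbp and Nfil3. Hlf had a cAMP response element 9 bases before its start, a motif found in 1.79% of the windows. The CACGTT variant (4.68% of windows) and both D-box forms (0.938% and 0.119%) were absent from the windows of these 7 genes. The search took exact matches within these windows only, so it cannot show whether a gene has such sites elsewhere.

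Levels below are log2 processed signal minus the 75th percentile of the array, so that 0 is the brightness of that percentile, and they compare arrays for 1 probe and not genes with each other. Fold changes are differences of group means on that log2 scale, with the standard error of the limma model. A gene was called at a Benjamini-Hochberg adjusted p under 0.05 over all 19551 genes, and "rose" is used of called genes only.

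Usp2 rose in both comparisons with ST vehicle. Its probe (mm9 chromosome 9, 43903649 to 43903708) read 1.13, 1.32, 1.56, 1.29 and 2.08 on the HFHS arrays, 1.94, 2.31, 2.48, 2.57 and 2.29 on the pollutant arrays, and -0.56, 0.54 and -1.13 on the ST vehicle arrays. Every HFHS and every pollutant array lay above the highest ST vehicle array. Against ST vehicle, Usp2 rose by 1.86 ± 0.32 in HFHS (3.62-fold, adjusted p = 0.0234) and by 2.70 ± 0.32 under the pollutants (6.49-fold, adjusted p = 0.00382). By p-value it ranked 9 of all genes in the pollutant comparison and 64 in the HFHS comparison.

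Ciart rose under the pollutants, by an amount that depended on the processing. Its probe (mm9 chromosome 3, 95682433 to 95682492) read -3.04, -2.39, -2.22, -3.13 and -1.48 on the HFHS arrays, -2.86, -1.66, -0.96, -0.96 and -0.80 on the pollutant arrays, and -4.13, -3.86 and -4.99 on the ST vehicle arrays. It was well above background on 12 of the 13 arrays, the exception being ST vehicle replicate 3, so it passed the filter on dim probes through the HFHS and pollutant groups and was not tested where all 13 arrays had to be well above background. Neither HFHS nor the pollutant arrays overlapped ST vehicle. The rise under the pollutants was 2.88 ± 0.49 (7.36-fold, adjusted p = 0.0221) with all 3 ST vehicle arrays, and 2.55 (adjusted p = 0.121) without ST vehicle replicate 3, while the HFHS value, 1.88 ± 0.49, missed the threshold (adjusted p = 0.128). In the authors' deposited table the differences were smaller, 1.46 under the pollutants (adjusted p = 0.0268) and 0.79 in HFHS (adjusted p = 0.293). With normexp background correction Ciart was at 1.78 under the pollutants (adjusted p = 0.0956). Pollutant replicate 1, on slide 1, was the lowest of its group by over 1 log2 unit. That array and pollutant replicate 2 lay among the HFHS values.

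Wee1 also rose under the pollutants. Its probe (mm9 chromosome 7, 117286573 to 117286632) read -0.77, -0.47, -0.29, -0.42 and -0.31 on the HFHS arrays, 0.12, 0.14, 0.01, 0.09 and -0.23 on the pollutant arrays, and -1.35, -0.62 and -2.02 on the ST vehicle arrays. The pollutant arrays lay above both other groups without overlap, and HFHS replicate 1 lay below ST vehicle replicate 2. The rise under the pollutants was 1.35 ± 0.24 (2.55-fold, adjusted p = 0.0246). HFHS was at 0.88 ± 0.24 (adjusted p = 0.141).

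Among the PAR bZIP activators, Tef rose under the pollutants and Dbp and Hlf did not pass in either comparison. Tef (mm9 chromosome 15, 81657221 to 81657280) read 5.18, 5.31, 5.43, 5.72 and 5.85 on the HFHS arrays, 5.76, 5.74, 5.99, 5.92 and 5.86 on the pollutant arrays, and 4.87, 5.39 and 4.33 on the ST vehicle arrays. The pollutant arrays did not overlap ST vehicle, whereas 2 HFHS arrays lay below ST vehicle replicate 2. Tef rose under the pollutants by 0.99 ± 0.21 (1.99-fold, adjusted p = 0.0484), just inside the threshold, and stood at 0.64 ± 0.21 in HFHS (adjusted p = 0.226).

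Dbp, whose level swings widely over the day in mouse liver, was measured by 2 probes, both well above background on every array. The brighter one (mm9 chromosome 7, 52965322 to 52965381) read 5.30, 5.46, 5.50, 5.57 and 5.80 on the HFHS arrays, 5.27, 5.48, 5.87, 5.70 and 5.55 on the pollutant arrays, and 4.72, 5.39 and 4.14 on the ST vehicle arrays. ST vehicle replicate 2 lay within the range of both other groups, and replicates 1 and 3 lay below every array of them. The fold changes were 0.78 ± 0.23 in HFHS (1.72-fold, adjusted p = 0.180) and 0.83 ± 0.23 under the pollutants (1.77-fold, adjusted p = 0.127). The other probe (52965461 to 52965520) gave 0.97 ± 0.25 (adjusted p = 0.114 over all probes) and 0.90 ± 0.25 (adjusted p = 0.123 over all probes), and on it the HFHS arrays (5.48 to 5.82) stood clear of ST vehicle (3.86 to 5.38).

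Hlf (mm9 chromosome 11, 90200696 to 90200755) read 1.44, 1.40, 1.65, 1.25 and 1.66 on the HFHS arrays, 1.03, 1.24, 1.71, 1.79 and 1.72 on the pollutant arrays, and 0.97, 1.03 and 0.90 on the ST vehicle arrays. Neither group overlapped ST vehicle, though pollutant replicate 1 and ST vehicle replicate 2 both read 1.03 at this rounding. The fold changes of Hlf were 0.52 ± 0.17 in HFHS (adjusted p = 0.232) and 0.53 ± 0.17 under the pollutants (adjusted p = 0.196).

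The repressors Nfil3 and Bhlhe40 did not pass in any comparison. Nfil3 (mm9 chromosome 13, 53062578 to 53062637) read 1.11, 0.87, 0.86, 1.42 and 1.37 on the HFHS arrays, 1.65, 0.84, 0.54, 0.54 and 0.80 on the pollutant arrays, and 1.37, 1.37 and 1.27 on the ST vehicle arrays. The groups overlapped, with 4 pollutant arrays below ST vehicle and pollutant replicate 1 above it. Its fold changes were -0.21 ± 0.23 in HFHS (adjusted p = 0.879) and -0.46 ± 0.23 under the pollutants (adjusted p = 0.466, 95% interval -0.96 to 0.04).

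Bhlhe40 (mm9 chromosome 6, 108616309 to 108616368) lay between 0.91 and 1.22 on the HFHS arrays, between 1.07 and 1.49 on the pollutant arrays, and at 0.83, 1.51 and 0.94 on the ST vehicle arrays. The range of ST vehicle took in every value of both other groups. The fold changes of Bhlhe40 were -0.05 ± 0.15 in HFHS (95% interval -0.37 to 0.28) and 0.16 ± 0.15 under the pollutants (95% interval -0.16 to 0.49). Its paralog Bhlhe41 was near background: 1 probe (mm9 chromosome 6, 145811275 to 145811334) was well above background on 5 of 13 arrays, 2 HFHS, 2 pollutant and 1 ST vehicle, and the other on 0. Readings of the first probe were -5.73 to -4.06 in HFHS, -5.30 to -4.44 under the pollutants and -5.20 to -4.57 in ST vehicle, with full overlap.

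**Figure D1:**
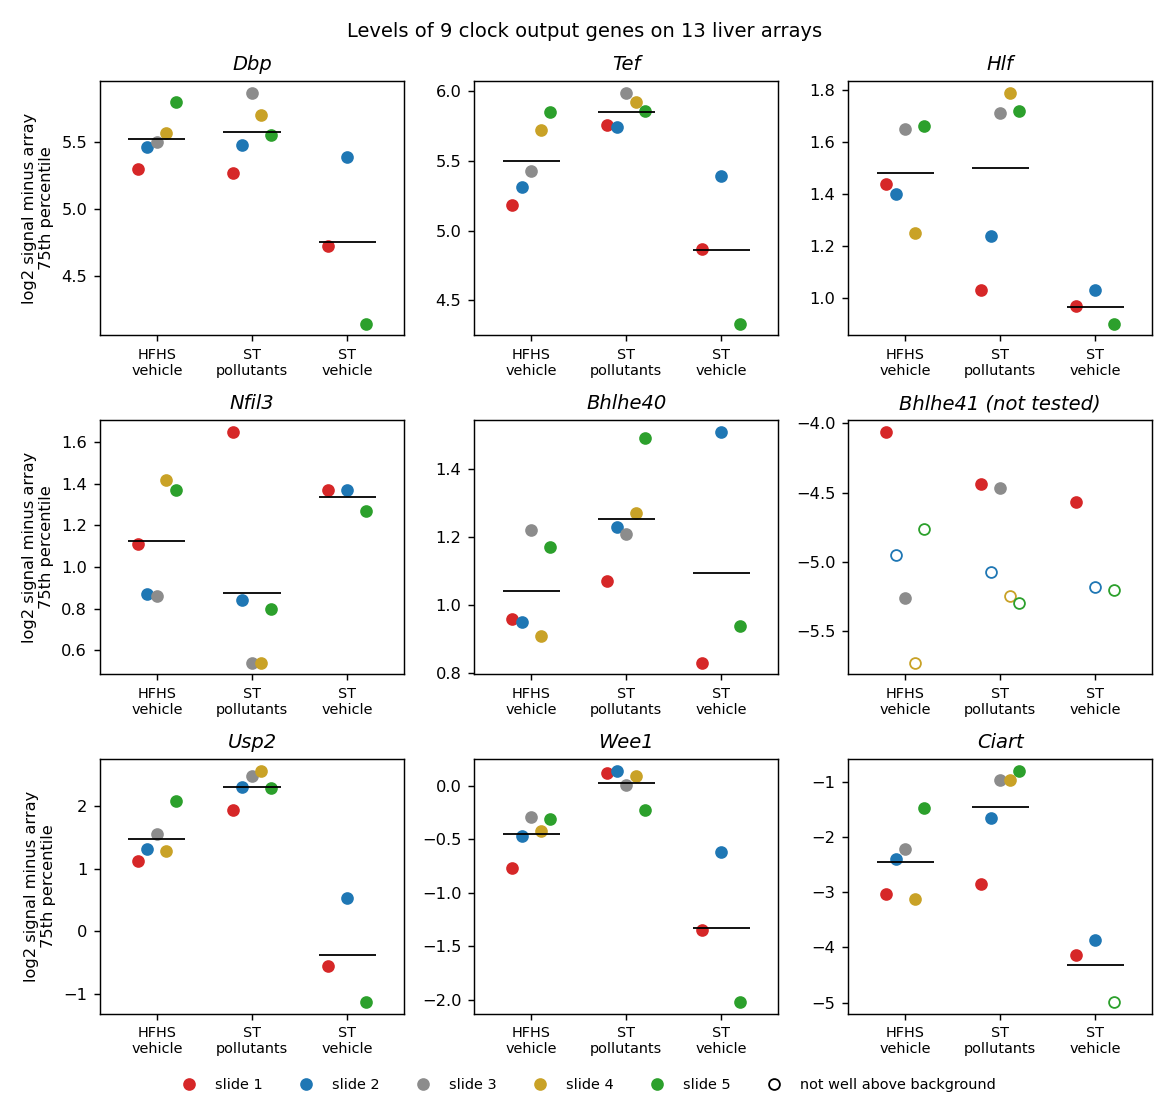
Log2 signal of the brightest probe of each gene minus the 75th percentile of its array, for 5 HFHS vehicle, 5 ST pollutants and 3 ST vehicle arrays, coloured by slide. Each point is 1 array, black lines are group means, and open points were not well above background. Usp2, Hlf and Ciart have every HFHS and pollutant array above the range of ST vehicle, and Tef and Wee1 have every pollutant array above it. For Nfil3 the pollutant arrays lie on both sides of that range, with none within it. ST vehicle replicate 3 (slide 5) is the lowest ST vehicle array for 7 of the 8 tested genes.

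In the pollutant comparison, 4 of the 8 tested genes rose and 0 fell, beside 0.537% of all genes called higher and 0.435% called lower. In the HFHS comparison 1 of 8 rose and 0 fell, beside 0.225% of all genes called higher and 0.43% called lower. With slide as a block these counts were 1 under the pollutants and 0 in HFHS, beside 67 and 84 of all genes. Leaving out 1 array gave 1 to 4 under the pollutants and 0 to 3 in HFHS. The 3 came without ST vehicle replicate 2, where 56 of all genes were called in HFHS. Groups did not overlap for 5 of 8 genes under the pollutants and for 3 of 8 in HFHS, all of them higher than ST vehicle, where 3.91% and 3.8% of all genes were higher without overlap. The median log2 fold change of the 8 genes was 0.91 under the pollutants (median of all genes -0.01) and 0.71 in HFHS (median of all genes -0.02). Both comparisons use the same 3 ST vehicle arrays. The genes of the set were chosen with earlier results of these data known, so these shares give a scale and not a test. Ciart is among the called and the non-overlapping genes, and passed the filter on dim probes only through the HFHS and pollutant groups. With probes well above background on all 13 arrays Ciart was not tested, and 3 genes were called under the pollutants and 1 in HFHS. Of all genes that passed this filter, 236 and 152 were called.

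**Figure D2:**
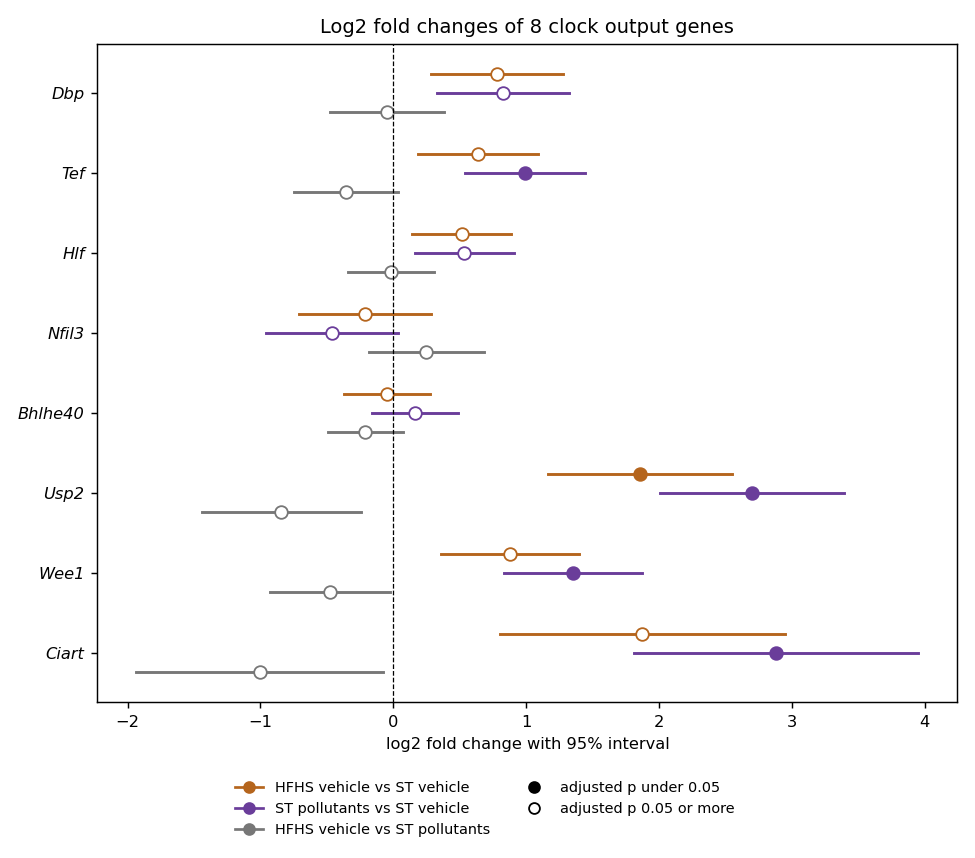
Log2 fold change of each of the 8 tested genes with its 95% interval from the limma model, for HFHS vehicle against ST vehicle, ST pollutants against ST vehicle, and HFHS vehicle against ST pollutants. Filled points had an adjusted p under 0.05: Usp2 in the first 2 comparisons and Tef, Wee1 and Ciart in the second, while no point of the third is filled.

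HFHS and pollutants were also set against each other directly. None of the 8 genes was called by limma (3.87% of all genes were), and 3 had an unadjusted p under 0.05 (18.3% of all genes did). A fit of these 10 arrays alone called 1, Usp2, beside 525 of all genes. Usp2 was at -0.84 ± 0.28 in HFHS relative to pollutants (95% interval -1.44 to -0.24, adjusted p = 0.118, and 0.0424 with the 10 arrays alone). Ciart was at -1.01 ± 0.43 (95% interval -1.93 to -0.08, adjusted p = 0.230), and Wee1 at -0.48 ± 0.21 (-0.93 to -0.03, adjusted p = 0.243). Wee1 was the 1 gene of the set whose HFHS and pollutant arrays did not overlap, lower in HFHS, where 4.18% of all genes were lower without overlap.

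Dbp and Hlf had nearly the same mean in HFHS and under the pollutants, with differences of -0.05 (95% interval -0.48 to 0.39) and -0.02 (95% interval -0.34 to 0.31). Tef was at -0.36 (-0.75 to 0.04), Bhlhe40 at -0.21 (-0.49 to 0.07) and Nfil3 at 0.25 (-0.18 to 0.68). Within the 5 slides, HFHS minus pollutants ran from -1.28 to -0.21 for Usp2 and from -2.17 to -0.17 for Ciart. It ran from -0.88 to -0.07 for Wee1 and from -0.58 to -0.02 for Tef, both nearest to level on slide 5. For Dbp, Hlf, Nfil3 and Bhlhe40 the difference took both signs. How many of all genes keep the same sign on every slide was not counted, so these values have no scale.

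Slides 1, 2 and 5 allow ST vehicle to be compared within a slide. Usp2 was higher by 2.50, 1.76 and 3.42 under the pollutants on these slides, and by 1.69, 0.78 and 3.21 in HFHS. For Ciart the pollutant differences were 1.27, 2.20 and 4.20 on these slides, and the HFHS differences 1.09, 1.47 and 3.51. Both genes had the same sign on all 3 slides, and how many of all genes did so was not counted. For Usp2 the largest difference was on slide 5, while for Ciart the slide 5 values are set against the array on which its probe was not well above background. Wee1 differed by 1.46, 0.76 and 1.79 under the pollutants and by 0.58, 0.15 and 1.71 in HFHS, and Tef by 0.89, 0.35 and 1.53 and by 0.31, -0.08 and 1.52. Dbp was nearly level on slide 2, at 0.09 under the pollutants and 0.07 in HFHS, and differed by 1.41 and 1.66 on slide 5.

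**Figure D3:**
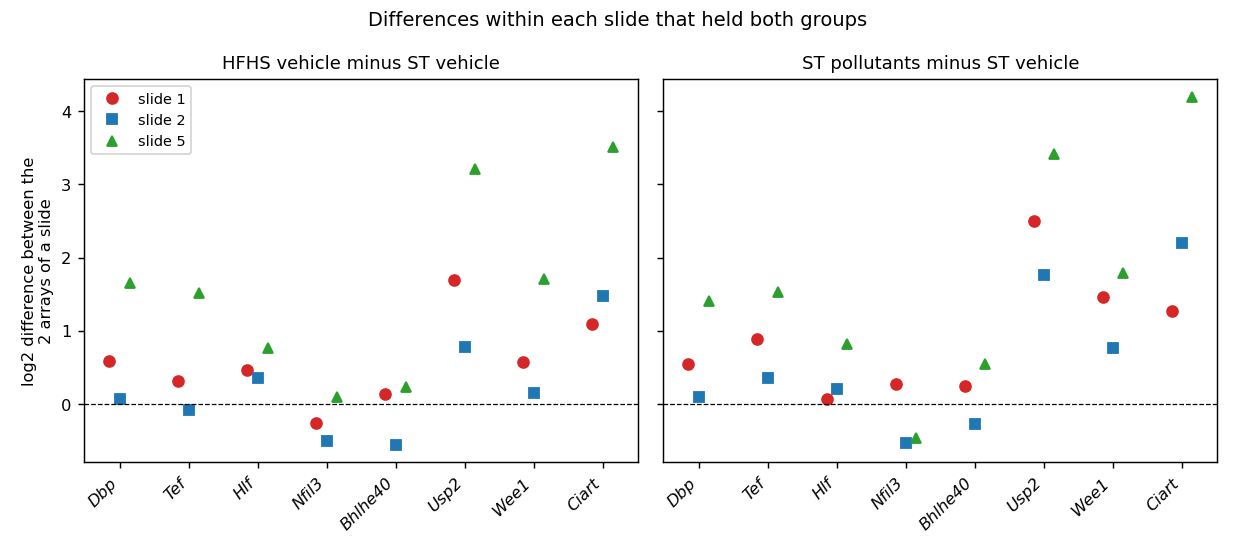
Log2 difference between the HFHS vehicle array and the ST vehicle array of a slide (left), and between the ST pollutants array and the ST vehicle array of a slide (right), for the 8 tested genes. Slide 5, with ST vehicle replicate 3, gives the largest difference for 6 of the genes in both panels (Dbp, Tef, Hlf, Usp2, Wee1 and Ciart, whose probe was not well above background on that ST vehicle array), and slide 2 differs by under 0.10 for Dbp.

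With slide as a block the rise of Usp2 under the pollutants remained called (2.65, adjusted p = 0.0296). The other calls ended: Usp2 in HFHS (1.805, adjusted p = 0.0971), Wee1 (1.31, adjusted p = 0.0721), Ciart (2.79, adjusted p = 0.0784) and Tef (0.93, adjusted p = 0.164) under the pollutants. Without the 3 arrays of slide 1 no gene of the set was called, with Usp2 at 2.70 under the pollutants (adjusted p = 0.0601) and 1.86 in HFHS (adjusted p = 0.163). Without HFHS replicates 3, 4 and 5, which carry the acinar transcripts, Usp2 was at 1.61 in HFHS (adjusted p = 0.216).

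Single arrays ended several of these calls. Usp2 under the pollutants was called without each of the 13 arrays in turn, with fold changes of 2.33 to 3.16 on the log2 scale and adjusted p up to 0.0276. In HFHS its call was lost without HFHS replicate 5 (adjusted p = 0.0518), ST vehicle replicate 1 (0.108) or ST vehicle replicate 3 (0.0997). Ciart under the pollutants was lost without ST vehicle replicates 1, 2 or 3 (0.0728, 0.0503 and 0.121) and without pollutant replicates 3, 4 or 5 (0.05003, 0.0526 and 0.0513). Wee1 was lost without ST vehicle replicates 1 or 3 (0.0882 and 0.0727) and pollutant replicates 3 or 4 (0.0522 and 0.0608). Of the 13 fits that leave out 1 array, Tef was called in 2, without HFHS replicate 5 (0.0494) and without ST vehicle replicate 2 (0.0207). In the other 11 its adjusted p was 0.0540 to 0.192, with the smallest fold change, 0.72, without ST vehicle replicate 3. Without ST vehicle replicate 2, Dbp was called in HFHS (1.101, adjusted p = 0.0478) and under the pollutants (1.15, adjusted p = 0.0302), as was Wee1 in HFHS (1.23, adjusted p = 0.0261), and Usp2 was lower in HFHS than under the pollutants (-0.84, adjusted p = 0.0402).

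The ST vehicle arrays differed widely from each other in these genes. The median standard deviation of the 8 genes was 0.56 in ST vehicle, against 0.18 over all genes, while it was 0.23 in HFHS (0.19 over all genes) and 0.23 under the pollutants (0.20 over all genes). ST vehicle replicate 3 was the lowest of the 3 for 7 of the 8 genes (32.3% of all genes) and replicate 2 the highest for 7 of 8 (32% of all genes). The exceptions were Bhlhe40, lowest on replicate 1, and Nfil3, highest on replicate 1. Nfil3 and Hlf had the narrowest spread in ST vehicle (SD 0.06 and 0.07) and Usp2 the widest (0.85). The clock genes outside the set differed along with them: Arntl read -1.77, -2.20 and -0.76 on ST vehicle replicates 1, 2 and 3, and Per2 read -3.12, -2.69 and -4.30. The limma model holds 1 spread per gene for the 3 groups. Its standard errors and p-values against ST vehicle can therefore understate the uncertainty for genes with a wider spread there, such as Usp2.

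Across the 13 arrays, and after centring each gene on its own mean, Dbp and Tef had the most similar profiles within the set, with a root mean square difference of 0.17 log2 units, followed by Tef and Wee1 (0.22). Nfil3 and Ciart were the least similar pair (1.53). Outside the set, among the 14209 tested genes whose symbol is no clone name, the 3 nearest to Usp2 were Per2, a repressor of the clock (0.42), Alas1, the first enzyme of heme synthesis (0.48), and Per3 (0.57), where the profile of Usp2 itself had a root mean square of 1.11. Ciart, with a root mean square of 1.27, was nearest to Per2 (0.68), Alas1 (0.72) and Per1 (0.72). Wee1, at 0.60, was nearest to Dclre1a (0.23), Per3 (0.25) and Abcb1a (0.26). Tef, at 0.46, was nearest to B4galt5 (0.19), Rhbdd2 (0.19) and Mknk2 (0.20). These distances are not scaled to how much a gene varies, so genes that vary little can lie close for that reason. They cover 13 arrays of shared groups and slides and carry no test.

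The core clock genes were read beside the set. The shares of all genes called, given above for both comparisons with ST vehicle, also apply to the list counts below. Calls of list genes are from the main model only. Whether they hold with slide as a block or without single arrays was not tested. Of the 4 measured activators, 2 fell and 0 rose under the pollutants, and 1 fell in HFHS. Arntl read -3.55 to -2.89 in HFHS, -3.94 to -3.49 under the pollutants and -2.20 to -0.76 in ST vehicle, with no overlap with ST vehicle. Clock fell under the pollutants by 0.64 ± 0.14 (adjusted p = 0.0484), reading -2.32 to -1.84 there and -1.57 to -1.22 in ST vehicle. Of the 6 measured repressors, 3 rose under the pollutants (Per1, Per2 and Per3, by 1.47, 1.85 and 1.27) and 1 in HFHS (Per2, by 1.63), with 0 falling in either. Per1 was lower in HFHS than under the pollutants (-1.02 ± 0.24, adjusted p = 0.0360).

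Among 11 measured metabolic genes linked to the PAR bZIP factors in liver, 2 rose and 0 fell in each comparison with ST vehicle. Of all genes, 0.537% were called higher under the pollutants and 0.225% in HFHS. The median log2 fold change of the 11 was 0.49 under the pollutants (median of all genes -0.01) and 0.36 in HFHS (median of all genes -0.02). The fold change was negative for 2 of them under the pollutants and for 1 in HFHS. Alas1 rose in both, reading 6.54 to 7.45 on the HFHS arrays, 7.17 to 7.78 on the pollutant arrays and 5.27 to 5.90 on the ST vehicle arrays, with no overlap with ST vehicle. The second called gene differed: Cyp7a1, which catalyses the limiting step from cholesterol to bile acids, in HFHS (1.99 ± 0.29, adjusted p = 0.0126), and Por, the electron donor of cytochromes P450, under the pollutants (0.87 ± 0.16, adjusted p = 0.0313). In the direct comparison of HFHS with pollutants neither was called (Cyp7a1 0.85 ± 0.25, adjusted p = 0.0909, and Por -0.41 ± 0.14, adjusted p = 0.135).

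Of 14 other genes with a daily rhythm in liver, 2 rose under the pollutants and 0 fell, and 0 were called in HFHS, where 5 had an unadjusted p under 0.05 (12.1% of all genes did). Nampt, the rate-limiting enzyme of NAD salvage, rose by 0.98 ± 0.17 (1.98-fold, adjusted p = 0.0225), with 1.63 to 2.15 on the pollutant arrays and 0.56 to 1.24 on the ST vehicle arrays. Lonrf3 rose by 1.20 ± 0.19 (2.30-fold, adjusted p = 0.0165), with -0.55 to 0.03 on the pollutant arrays and -1.89 to -1.21 on the ST vehicle arrays. Neither gene overlapped ST vehicle. In HFHS the same genes were at 0.51 ± 0.17 (adjusted p = 0.227) and 0.23 ± 0.19 (adjusted p = 0.779).

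In the direct comparison, 4 of these 14 genes were lower in HFHS than under the pollutants and 0 higher, where 2.3% of all genes were called lower. They were Lpin1, a phosphatidate phosphatase (-1.26 ± 0.19, adjusted p = 0.00588), Lonrf3 (-0.97 ± 0.16, adjusted p = 0.00772), Tspan4 (-0.82 ± 0.19, adjusted p = 0.0339) and Gys2, the liver glycogen synthase (-0.74 ± 0.19, adjusted p = 0.0499). Lpin1 read -0.38 to -0.09 on the HFHS arrays and 0.37 to 1.50 on the pollutant arrays, without overlap. The 6 kinases and ubiquitin ligase genes that act on clock proteins had 0 calls in any comparison, with medians of 0.02 in HFHS, -0.05 under the pollutants and -0.10 in HFHS against pollutants. At an unadjusted p under 0.05 there were 2 of them in HFHS against ST vehicle, 0 under the pollutants against ST vehicle and 1 in HFHS against pollutants, beside 12.1%, 12.1% and 18.3% of all genes in these comparisons.

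**Figure D4:**
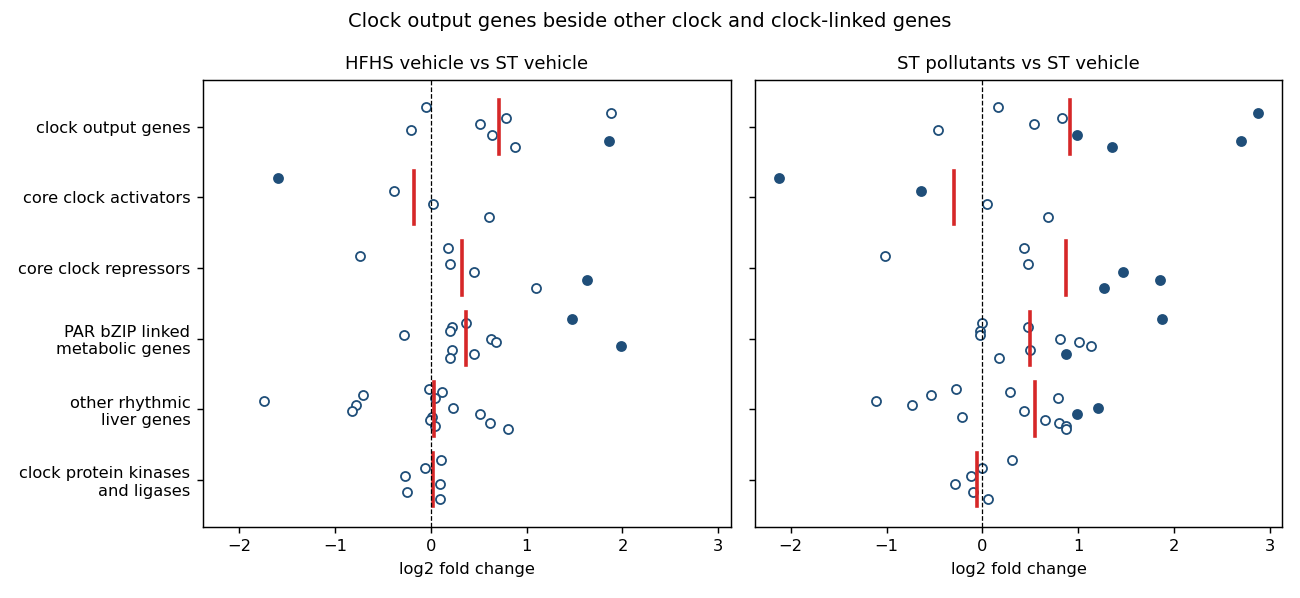
Log2 fold changes of single genes against ST vehicle, in HFHS (left) and under the pollutants (right), for the 8 tested clock output genes and 5 lists of related genes. Each point is a gene, filled at an adjusted p under 0.05, and the red line is the median of the list, which for the clock output genes lies at 0.71 in HFHS and at 0.91 under the pollutants.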

How the data were processed

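One-colour Agilent arrays of liver RNA were scanned with Feature Extraction 11.5.1.1, per the file headers, and the deposited scanner files give a processed signal intensity for each spot, after the scanner software's background and spatial correction. Probe positions are on mm9, per the file headers. The authors' deposited table holds log2 values of 26082 probes, and the submitters' processing notes name limma for it. Its 13 columns matched their own arrays, and it served as an alternative.

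From the intensities, control spots were left out, outlier spots were set to missing and spots of a probe were averaged. The log2 value minus the array's 75th percentile was used. Probes were kept where all arrays of 1 or more groups had them well above background (25051 of 39429), and the brightest probe stood for a gene (19551 genes). One limma model of the 3 groups was fitted (limma 3.58.1, R 4.3.3), with Benjamini-Hochberg adjustment. The number of arrays, with 3 in ST vehicle, limits the precision. The members and lists were chosen with earlier results of these data known. Named are all members, the called genes of each list, and the 3 genes nearest to each called member. Alternatives covered background, scaling, filter, probe choice, slide and replicate blocks, groups alone, the authors' table and arrays left out.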

Additional observations from a re-analysis of the deposited data

Results flagged for a closer look

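In 22 groups of 5 arrays (each probe of the set in HFHS and under the pollutants), 3 held an array that stood far from the rest, where chance gives about 1 in 20. For Nfil3, pollutant replicate 1 read 1.65, and the next highest pollutant array read 0.84. The other Dbp probe read 5.82 on HFHS replicate 5, above 5.55 for the next. The dimmer Bhlhe41 probe read -5.89 on pollutant replicate 3, above -7.32 for the next, and was well above background on no array.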

How the results depend on the processing

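Calls among the 8 genes depended on the setting, and the causes were not tested. Under 26 alternative settings, 13 of which left out 1 array, Usp2 under the pollutants was called in 25, the exception being the fit without slide 1. The count of called genes against ST vehicle was 4 under the pollutants and 1 in HFHS. Under the pollutants it was 1 with normexp background correction, with slide as a block, with the replicate block or with the 2 groups alone, 2 with scaling on the median, with no filter on dim probes or without HFHS replicates 3 to 5, 0 without slide 1, and 3 with probes well above background on all 13 arrays (Ciart not tested) or with the mean of a gene's probes (Tef not called, adjusted p = 0.0502). In HFHS it was 0 with normexp, no filter, either block, the 2 groups alone, without slide 1 or without HFHS replicates 3 to 5. Between HFHS and pollutants it was 0, and 1 with the 2 groups alone. Leaving out 1 array gave 1 to 4 under the pollutants, 0 to 3 in HFHS and 0 to 1 between them.

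Over all genes, 190 were called under the pollutants (3 to 246 under the settings other than leaving out 1 array), 128 in HFHS (1 to 157) and 756 between HFHS and pollutants (1 to 858). The lowest counts were without slide 1. The highest were with all probes fitted, a setting that counts probes and not genes. The sign of Dbp in HFHS against pollutants turned to 0.024 with quantile normalization, 0.013 with the mean of its probes and 0.138 in the authors' deposited table, and ran from -0.122 to 0.027 on leaving out 1 array. That of Hlf ran from -0.135 to 0.054, and Bhlhe40 in HFHS against ST vehicle from -0.18 to 0.16. Replicate numbers are shared between groups, and same-numbered arrays correlated at -0.168 to 0.561 in their deviations, with 8 of 11 pairs over 0.1. ST vehicle replicate 3 lay on another slide than HFHS replicate 3 (-0.154) and pollutant replicate 3 (-0.168). The main model took neither replicate number nor slide as a block. Arrays of the same slide correlated at -0.028 to 0.561, with 10 of 11 over 0.1. The replicate block left 1 gene called under the pollutants, 0 in HFHS and 0 between HFHS and pollutants, and 44, 53 and 563 of all genes.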
